A study of Mus musculus with 4 samples.

Results

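Elastic fibre genes were followed in mouse abdominal aortic grafts by RNA sequencing. They are 32 genes for elastin, fibrillins, fibulins, microfibril-associated proteins, EMILINs and multimerin-2, latent TGF-beta binding proteins (LTBPs), lysyl oxidases, ADAMTS-like proteins and tenascin-X. They were chosen by symbol with earlier results of these data known, so their counts beside those of all genes are a description only. Each symbol matched 1 of the 54752 gene rows of the deposited count table. The grafts were ALLO, the allografts named in the series title as undergoing chronic rejection, and ISO, which the labels leave unexplained. Each group had 2 libraries (n = 2 per group throughout), collected 4 weeks after transplantation of the aorta. The labels give no strain, sex, age or treatment, nor do they tell if replicates are different animals. The p-values therefore describe the spread among these libraries alone, which for the ALLO pair may be technical.

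Elastic fibres give the aorta its recoil. Tropoelastin is deposited on a scaffold of fibrillin microfibrils, with fibulins and LTBP4 guiding its assembly, and lysyl oxidases cross-link it through lysine side chains. Microfibrils also hold latent TGF-beta through LTBPs, and ADAMTS-like proteins bind fibrillin. In the aortic media smooth muscle cells make most of this material, while fibroblasts of the adventitia express many of the same genes.

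The libraries held 18978538 and 20194854 counts in ALLO and 18488823 and 17532344 in ISO. Xist, the RNA that silences an X chromosome, stood at 6 and 0 counts in ALLO and at 10647 and 8 counts in ISO. ISO replicate 1 was thus the only library with Xist at the level of female tissue, so the ISO libraries did not come from the same graft. Sex and replicate cannot be told apart in ISO, and sex is not balanced between ALLO and ISO either. The sex of donor and recipient is not given, so Xist cannot be assigned to either. Of 10 smooth muscle markers all were detected in every library and all 10 were lower in ALLO, with summed levels of 1524 and 2924 CPM in ALLO against 33372 and 33567 CPM in ISO. CPM here means counts scaled to a common library size after correction for library composition. Higher and lower mean an edgeR adjusted p under 0.05. By that threshold 18.4% of all genes tested were higher in ALLO and 14.8% were lower. Of 10 fibroblast and adventitia markers 1 (Ly6a) was higher and 2 (Pi16 and Gsn) were lower. Their summed levels were 14369 and 17755 CPM in ALLO against 8443 and 11040 CPM in ISO. Most of the ALLO sums came from Col1a1 (5918 and 10462 CPM) and Col3a1 (5694 and 5029 CPM). Neither of these passed (edgeR adjusted p = 0.0702 and 0.184), so the sums do not stand for the other markers. Of 10 macrophage markers 9 were higher, at 3871 and 4058 CPM in ALLO against 458 and 168 CPM in ISO. Of 8 endothelial markers 4 were lower and 1 higher, at 738 and 822 CPM in ALLO against 1637 and 1674 CPM in ISO. None of these 38 markers was at 0 in both libraries of a group. Summed levels of 8 T cell markers, all higher, were 404 and 322 CPM in ALLO and 10.7 and 3.02 CPM in ISO. Of 6 B and plasma cell markers 1 was higher (2711 and 926 CPM in ALLO, 78.2 and 0.966 CPM in ISO), as were 4 of 4 tested lymphatic endothelial markers (339 and 170 CPM in ALLO, 54.2 and 36.4 CPM in ISO, Ccl21a at 0 in ISO). So were 3 of 4 Schwann cell markers (112 and 172 CPM in ALLO, 23.6 and 15.0 CPM in ISO), 3 of 6 tested chondrocyte and bone markers (92.0 and 155 CPM in ALLO, 29.9 and 49.6 CPM in ISO, Bglap at 0 in ISO) and 1 of 4 tested adipocyte markers (580 and 492 CPM in ALLO, 658 and 390 CPM in ISO). Of 3 mesothelial markers 0 passed (6.47 and 1.91 CPM in ALLO, 6.49 and 1.57 CPM in ISO), and of 2 tested striated muscle markers 1 was lower (2.83 and 0.817 CPM in ALLO, 10.5 and 9.96 CPM in ISO, with Myh7 at 0 in ALLO and Myl2 at 0 in ISO). The part of such shifts in the results that follow was not tested, and in whole tissue fewer cells of a type cannot be told apart from less RNA per cell.

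Of the elastic fibre genes that passed the test, most were lower in ALLO. Elastin, 3 of 4 LTBPs, 4 of 6 ADAMTS-like genes, the microfibril genes Mfap4 and Mfap5, Fbln5, Mmrn2 and Tnxb fell, and Fbn2, Ltbp2, Fbln1, Loxl2 and Adamtsl1 rose. Of the 32 genes 31 had enough counts to be tested with edgeR's quasi-likelihood test, adjusted over all 16498 genes tested. Of these 31, 13 fell, 5 rose and 13 did not pass an adjusted p of 0.05. Over all genes tested 14.8% were lower and 18.4% higher by the same threshold, 33.1% in either direction. The share of the 31 that rose was thus not above that over all genes. Among the genes that rose, only Fbn2 kept its call with each library left out. Scaling by library size alone gave 7 higher and 11 lower among the 31, and 3546 higher and 1867 lower among all genes, against 3032 and 2437. The median log2 change was -0.84 over the 31 genes and 0.03 over all genes tested. It was -0.52 without ALLO replicate 1 and -1.38 without ALLO replicate 2, where 16 genes fell and 3 rose. Without ISO replicate 2, 11 fell and 1 rose. Both ALLO libraries lay below both ISO libraries in 18 of the 31, a pattern shown by 35.4% of all genes tested, and above them in 8, a pattern shown by 37.1%. The 32 genes together took 0.456% and 0.869% of the counts in ALLO libraries and 1.49% and 2.05% in ISO libraries. The widest of their 95% Wilson intervals spanned 0.0133 percentage points. These intervals treat each count as independent and leave out differences between libraries. They are too narrow even for counting error where both mates of a pair were counted.

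**Figure D1:**
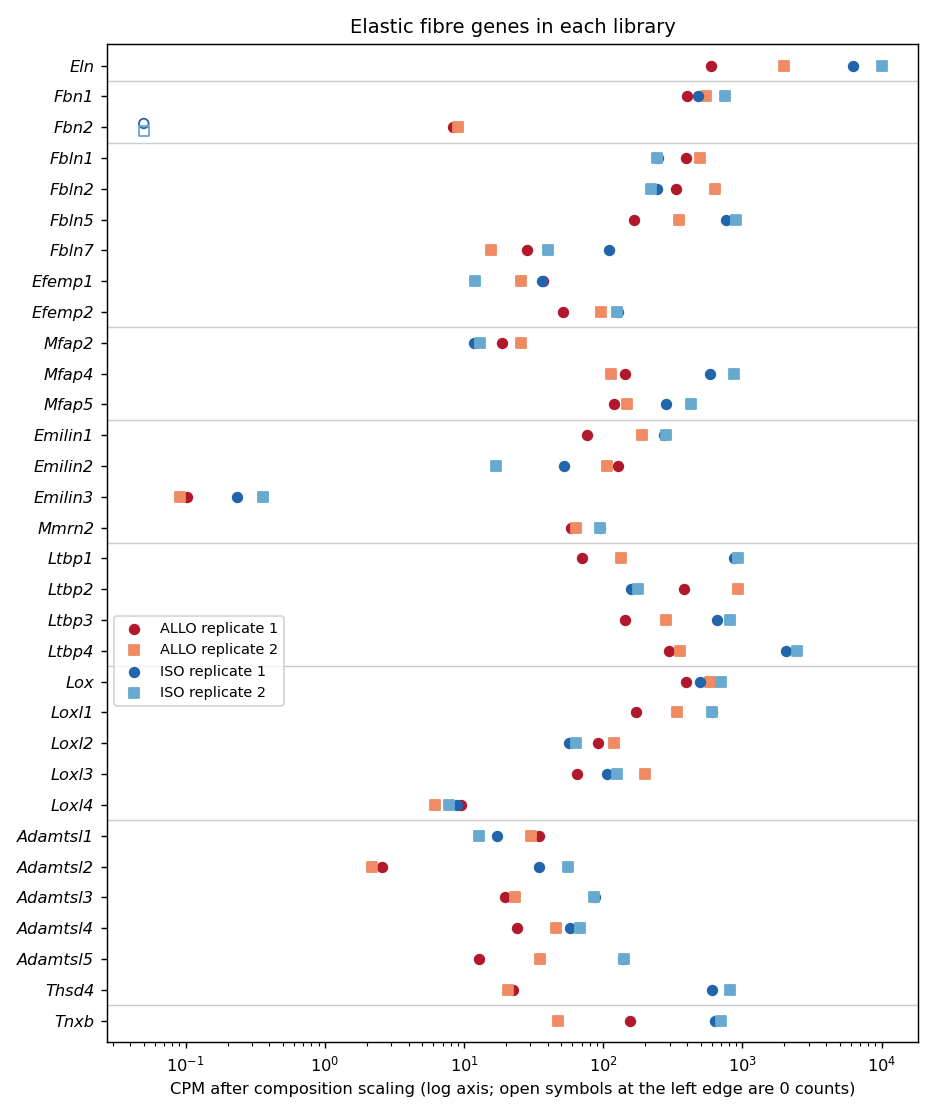
Level of each of the 32 elastic fibre genes in each library, in CPM after composition scaling on a log axis, with ALLO libraries in red and orange and ISO libraries in blue. Fbn2 is at 0 counts in both ISO libraries, and Thsd4 and Adamtsl2 show the widest gaps with ALLO on the lower side.

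Eln encodes tropoelastin, the monomer of the elastic core (ENSMUSG00000029675.12, mm10 chromosome 5, 134702593 to 134747323, minus strand). It had 593 and 1988 CPM in ALLO libraries, against 6195 and 9985 CPM in ISO libraries. The groups did not overlap, and the ALLO libraries differed 3.35-fold from each other. Eln fell by a log2 change of -2.65 ± 0.72 (SE), 6.27-fold lower in ALLO (edgeR adjusted p = 0.0433). The fall was 13.6-fold without ALLO replicate 2. It was 3.99-fold and no longer passed without ALLO replicate 1 (edgeR adjusted p = 0.0570). With scaling by library size alone the call was also lost (edgeR adjusted p = 0.0566).

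The fibrillins form the microfibril backbone. Fbn1, the main fibrillin of adult microfibrils (ENSMUSG00000027204.13, mm10 chromosome 2, 125300594 to 125507993), had 399 and 544 CPM in ALLO and 480 and 751 CPM in ISO. Its groups overlapped, with a log2 change of -0.38 ± 0.33 (SE, edgeR adjusted p = 0.417). Of its exonic bases 20.1% lie in Gm9913, an antisense gene, and no source used here says if counting was stranded. Fbn2, the fibrillin of developing microfibrils (ENSMUSG00000024598.8), had 163 and 199 counts in ALLO and 0 in both ISO libraries. It rose at least 24.4-fold against a floor of 6 counts per library (edgeR adjusted p = 0.00477). In the ALLO libraries Fbn2 still made up only 2.37% and 1.88% of the summed fibrillin level per kb of gene length, against 0 of 8217 and 0 of 12438 Fbn1 and Fbn2 counts in the ISO libraries.

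The fibulins are secreted adaptors that bind elastin and microfibrils. Of the 6 genes 1 rose, 1 fell and 4 did not pass, where 33.1% of all genes tested passed in either direction. Fbln5 encodes fibulin-5, which brings tropoelastin to microfibrils (ENSMUSG00000021186.9, mm10 chromosome 12, 101746565 to 101819055). It had 167 and 347 CPM in ALLO and 768 and 894 CPM in ISO. The groups did not overlap, and it fell, with a change of -1.69 ± 0.41 on the log2 scale (SE, edgeR adjusted p = 0.0313). It was 4.95-fold lower without ALLO replicate 2, and the call was lost without ISO replicate 2 (edgeR adjusted p = 0.0557). Fbln1, which encodes fibulin-1 of vessel walls and basement membranes (ENSMUSG00000006369.14, mm10 chromosome 15, 85205949 to 85286535), had 391 and 497 CPM in ALLO and 249 and 242 CPM in ISO. It rose 1.81-fold (log2 change 0.86 ± 0.23, SE, edgeR adjusted p = 0.0420). That call was lost without ALLO replicate 2 (edgeR adjusted p = 0.0713), without ISO replicate 1 (0.215) and without ISO replicate 2 (0.262).

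Fbln2, the fibulin-2 gene, had 333 and 630 CPM in ALLO and 244 and 222 CPM in ISO, and did not pass (log2 change 1.05 ± 0.35, SE, edgeR adjusted p = 0.0769). It passed as higher without ALLO replicate 1 (edgeR adjusted p = 0.0182). Efemp2 encodes fibulin-4, which brings lysyl oxidase to tropoelastin. It had 51.5 and 96.6 CPM in ALLO and 127 and 125 CPM in ISO, and passed as lower only when ALLO replicate 2 was left out (edgeR adjusted p = 0.0176, against 0.137 with all libraries). Fbln7 and Efemp1, the fibulin-7 and fibulin-3 genes, differed more within ISO than most members, with levels 2.72 and 3.01 times as high in ISO replicate 1 as in the other ISO library. Fbln7 had 28.4 and 15.7 CPM in ALLO and 109 and 40.2 CPM in ISO, and did not pass (log2 change -1.76 ± 0.56, SE, edgeR adjusted p = 0.0644). It was 5.04-fold lower without ISO replicate 2 (edgeR adjusted p = 0.00328) and 1.84-fold lower without ISO replicate 1 (0.176). Efemp1 had 37.1 and 25.6 CPM in ALLO and 36.0 and 12.0 CPM in ISO, with overlapping groups (edgeR adjusted p = 0.625). It was 2.60-fold higher without ISO replicate 1 (edgeR adjusted p = 0.0440), and its log2 change turned to -0.22 without ISO replicate 2 (0.746).

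Mfap4 encodes a fibrinogen-related protein that binds fibrillin and elastin (ENSMUSG00000042436.12, mm10 chromosome 11, 61485431 to 61488900). It had 143 and 114 CPM in ALLO and 582 and 865 CPM in ISO, and fell, with a change of -2.49 ± 0.31 on the log2 scale (SE, edgeR adjusted p = 0.00611). Mfap5, which encodes the microfibril protein MAGP-2, had 119 and 148 CPM in ALLO and 283 and 428 CPM in ISO. It fell, with a change of -1.41 ± 0.29 (log2, SE, edgeR adjusted p = 0.0207), a call lost without ALLO replicate 1 (0.0787) and without ISO replicate 2 (0.0948). The MAGP-1 gene Mfap2 had 18.8 and 25.6 CPM in ALLO and 11.7 and 13.0 CPM in ISO and did not pass (edgeR adjusted p = 0.0669). Per kb of gene length, Mfap2 took 12.6% and 17.4% of the level of these 3 genes in ALLO libraries and 2.47% and 1.86% in ISO libraries.

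EMILINs sit at the interface of elastin and microfibrils. Emilin1 had 76.1 and 190 CPM in ALLO and 274 and 282 CPM in ISO (edgeR adjusted p = 0.133). It passed as 3.64-fold lower without ALLO replicate 2 (edgeR adjusted p = 0.0119). Emilin2 had 128 and 107 CPM in ALLO and 51.9 and 16.8 CPM in ISO. Its groups did not overlap, but it missed the threshold (log2 change 1.77 ± 0.54, SE, edgeR adjusted p = 0.0583). It passed without ISO replicate 1 as 6.91-fold higher (edgeR adjusted p = 0.00112), and was 2.23-fold higher without ISO replicate 2 (0.0626). Emilin3 had 2 counts in each ALLO library and 4 and 6 in ISO libraries, too few to be tested. Mmrn2, a multimerin of endothelial cells, had 58.3 and 63.2 CPM in ALLO and 94.5 and 95.5 CPM in ISO. It fell 1.56-fold (edgeR adjusted p = 0.0400), and that call was lost whichever library was left out (edgeR adjusted p = 0.0567 to 0.201).

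LTBP1, LTBP3 and LTBP4 bind latent TGF-beta, LTBP4 also binds fibulin-5 in elastic fibre assembly, and LTBP2 is the family member that does not bind latent TGF-beta. All 4 genes passed the test, 3 as lower and Ltbp2 as higher, where 33.1% of all genes tested passed in either direction. Upstream sequences of the 4 paralogs are shown because members of this family moved in opposite directions. They come from RefSeq (GRCm38.p6) and end at the most upstream RefSeq start of transcription or, where the deposited gene model begins earlier, at that point. Capitals mark GGGCGG on either strand.
Ltbp1: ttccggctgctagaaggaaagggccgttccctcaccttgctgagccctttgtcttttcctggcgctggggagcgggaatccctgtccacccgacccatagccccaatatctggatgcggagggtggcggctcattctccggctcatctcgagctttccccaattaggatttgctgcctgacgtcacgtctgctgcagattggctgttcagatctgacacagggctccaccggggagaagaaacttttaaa
Ltbp2: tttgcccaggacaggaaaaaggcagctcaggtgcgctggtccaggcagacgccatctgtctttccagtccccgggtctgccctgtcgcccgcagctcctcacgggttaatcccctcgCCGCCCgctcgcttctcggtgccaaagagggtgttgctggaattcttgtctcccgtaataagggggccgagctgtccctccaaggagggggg
Ltbp3: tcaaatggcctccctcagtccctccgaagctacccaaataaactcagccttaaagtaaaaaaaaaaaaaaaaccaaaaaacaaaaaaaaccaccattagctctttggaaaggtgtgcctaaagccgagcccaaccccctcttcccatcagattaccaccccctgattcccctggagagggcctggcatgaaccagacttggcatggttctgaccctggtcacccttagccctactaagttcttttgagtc
Ltbp4: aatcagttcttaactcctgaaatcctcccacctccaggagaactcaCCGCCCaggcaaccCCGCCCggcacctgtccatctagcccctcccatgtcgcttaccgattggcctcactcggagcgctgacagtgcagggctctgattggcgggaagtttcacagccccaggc
These stretches lie at chr17:75005279-75005528 (plus strand), chr12:84876533-84876741 (minus), chr19:5740650-5740899 (plus) and chr7:27337693-27337862 (minus). In the full 250 bases before the most upstream RefSeq start, GGGCGG occurred 2 times for Ltbp2, 3 times for Ltbp4 and not for Ltbp1 or Ltbp3. Any tie of the motif to the direction of change was not tested. Which start sites the grafts used was not measured.

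Over 32851 RefSeq windows of 250 bases, GGGCGG was present in 32.7%, TATAAA in 12.4%, CAGACA in 17.1% and the CArG box in 1.47%, each searched on both strands. GGGCGG is the GC box bound by Sp1, TATAAA the TATA box, CAGACA a Smad-binding motif and the CArG box the site of serum response factor. RefSeq windows were found for 21 of the 32 genes. Their 31 windows held GGGCGG in 20, CAGACA in 7, TATAAA in 1 and the CArG box in 0. Eln, Fbn2, Mfap4, Mfap5, Emilin3, Mmrn2, Lox, Loxl1, Loxl2, Loxl3 and Adamtsl1 had no entry.

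Ltbp4 (ENSMUSG00000040488.17, mm10 chromosome 7, 27305136 to 27337692) had 296 and 359 CPM in ALLO and 2050 and 2470 CPM in ISO. It fell, with a change of -2.79 ± 0.31 on the log2 scale (SE, edgeR adjusted p = 0.00508). Ltbp1 (ENSMUSG00000001870.16, mm10 chromosome 17, 75005568 to 75392512) had 70.6 and 134 CPM in ALLO and 874 and 930 CPM in ISO. It fell, with a change of -3.14 ± 0.39 (log2, SE, edgeR adjusted p = 0.00611). Ltbp3 (ENSMUSG00000024940.10, mm10 chromosome 19, 5740904 to 5758532) had 143 and 280 CPM in ALLO and 652 and 814 CPM in ISO, and fell, with a change of -1.79 ± 0.39 (log2, SE, edgeR adjusted p = 0.0244). None of these 3 genes had overlapping groups, and their calls held with each library left out.

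Ltbp2 (ENSMUSG00000002020.15, mm10 chromosome 12, 84783212 to 84876532) ran the other way, at 381 and 935 CPM in ALLO and 159 and 177 CPM in ISO. It rose, with a change of 1.97 ± 0.47 on the log2 scale, 3.92-fold (SE, edgeR adjusted p = 0.0300). The rise was 2.28-fold without ALLO replicate 2, and the call was lost without ISO replicate 1 (edgeR adjusted p = 0.0584) and without ISO replicate 2 (0.0510). Of its exonic bases 9.34% lie in the antisense gene D030025P21Rik.

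Per kb of gene length, Ltbp2 made up 36.8% and 48.3% of the LTBP level in ALLO libraries, against 3.56% and 3.34% in ISO libraries. Ltbp4 made up 36.2% and 23.5% in ALLO and 58.3% and 59.0% in ISO. Ltbp2 was thus the most abundant LTBP transcript per length in both ALLO libraries, level with Ltbp4 in replicate 1 (a ratio of 1.02) and at 2.06 times its level in replicate 2, against ratios of 0.0611 and 0.0565 in ISO. With 2 libraries against 2, the smallest two-sided p of an exact permutation test is 0.333, so these shares were not tested. Ltbp3 kept a similar share, at 21.7% and 22.9% in ALLO and 23.1% and 24.2% in ISO. The fibulins also changed make-up, with Fbln5 at 11.4% and 15.9% of the fibulin level in ALLO and 36.3% and 45.4% in ISO, and Fbln1 at 42.1% and 35.9% in ALLO and 18.6% and 19.4% in ISO.

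**Figure D2:**
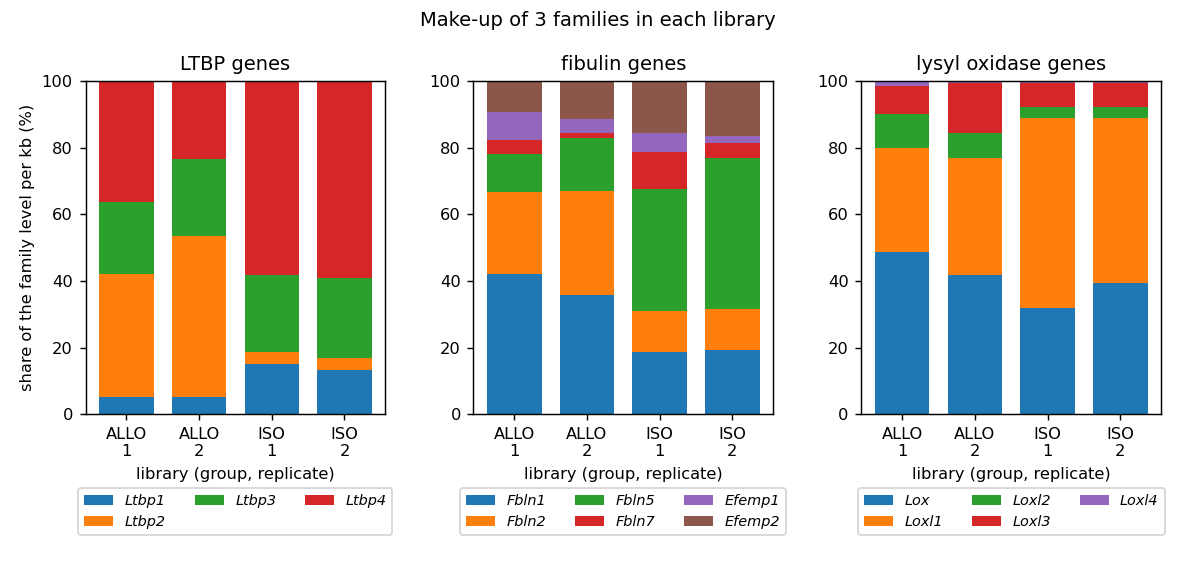
Share of each gene in the summed level per kb of the LTBP, fibulin and lysyl oxidase families, in percent, for the 2 ALLO and the 2 ISO libraries. Ltbp2 takes 36.8% and 48.3% in ALLO and 3.56% and 3.34% in ISO, and Loxl1 takes 31.2% and 35.1% in ALLO and 57.0% and 49.5% in ISO.

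Lysyl oxidases are the copper enzymes that start cross-linking of elastin and collagen. Of the 5 genes 1 rose, 0 fell and 4 did not pass, where 33.1% of all genes tested passed in either direction. Lox itself (ENSMUSG00000024529.13) had 391 and 589 CPM in ALLO and 499 and 701 CPM in ISO. Its groups overlapped, and its log2 change of -0.29 ± 0.32 did not pass (SE, edgeR adjusted p = 0.534). Per kb of gene length, the level of Lox was 1.11 and 0.499 times that of Eln in ALLO libraries and 0.136 and 0.118 times that of Eln in ISO libraries. Loxl1, the paralog tied to upkeep of elastic fibres, had 172 and 338 CPM in ALLO and 609 and 603 CPM in ISO (log2 change -1.25 ± 0.37, SE, edgeR adjusted p = 0.0554). It passed as lower without ALLO replicate 2 (3.52-fold, edgeR adjusted p = 0.0150).

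Loxl2, a paralog with scavenger receptor domains (ENSMUSG00000034205.16, mm10 chromosome 14, 69609068 to 69695834), had 91.9 and 119 CPM in ALLO and 56.6 and 64.0 CPM in ISO. It rose 1.75-fold (log2 change 0.81 ± 0.21, SE, edgeR adjusted p = 0.0398). The call was lost without ALLO replicate 2 (edgeR adjusted p = 0.0867), ISO replicate 1 (0.217) or ISO replicate 2 (0.144). Loxl3 had 65.0 and 201 CPM in ALLO and 107 and 125 CPM in ISO, so that the ALLO libraries stood on either side of ISO (edgeR adjusted p = 0.805). Of its exonic bases 11.6% are shared with Htra2. Loxl4 stayed at 6.22 to 9.46 CPM in the ALLO libraries and 7.79 to 8.83 CPM in the ISO libraries (edgeR adjusted p = 0.872).

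ADAMTS-like proteins resemble ADAMTS proteases but have no protease domain. Thsd4, also called ADAMTSL6, which binds fibrillin-1, showed the largest fall among the 32 genes (ENSMUSG00000032289.15, mm10 chromosome 9, 59966931 to 60522046). It had 22.3 and 20.6 CPM in ALLO and 602 and 812 CPM in ISO, a log2 change of -5.04 ± 0.29, 32.9-fold lower (SE, edgeR adjusted p = 0.00216). Leaving out any 1 library gave 28.5- to 38.2-fold. Adamtsl2, which binds fibrillin-1 and LTBP1 (ENSMUSG00000036040.14, mm10 chromosome 2, 27079379 to 27108981), had 2.57 and 2.18 CPM in ALLO and 34.4 and 55.5 CPM in ISO. It fell 18.9-fold (log2 change -4.24 ± 0.35, SE, edgeR adjusted p = 0.00340). Its window was the only 1 of the 31 with TATAAA, whose first base lies 30 bases before the RefSeq start of transcription.

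Adamtsl3 had 19.6 and 23.2 CPM in ALLO and 87.4 and 85.9 CPM in ISO, and fell 4.05-fold (edgeR adjusted p = 0.00381). Adamtsl5 had 12.8 and 35.4 CPM in ALLO and 139 and 142 CPM in ISO. It fell 5.81-fold (edgeR adjusted p = 0.0185). The fall was 10.9-fold when ALLO replicate 2 was left out. Adamtsl1 had 34.3 and 30.5 CPM in ALLO and 17.3 and 12.7 CPM in ISO. It rose 2.15-fold (edgeR adjusted p = 0.0278), a call lost without ALLO replicate 1 (0.0716) and without ISO replicate 2 (0.144). Adamtsl4, which binds fibrillin-1 and is known for its part in anchoring the lens, had 24.0 and 45.9 CPM in ALLO and 57.8 and 67.7 CPM in ISO (edgeR adjusted p = 0.118). Without ALLO replicate 2 it passed as lower (2.60-fold, edgeR adjusted p = 0.0224).

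Tnxb encodes tenascin-X, a matrix protein that binds collagen and is made by fibroblasts (ENSMUSG00000033327.16, mm10 chromosome 17, 34670535 to 34719815). It had 155 and 47.5 CPM in ALLO and 639 and 705 CPM in ISO, and fell, with a change of -2.73 ± 0.59 on the log2 scale (SE, edgeR adjusted p = 0.0242). Unlike Eln, its level was higher in ALLO replicate 1 than in ALLO replicate 2. It was 13.8-fold lower without ALLO replicate 1 and 4.31-fold lower without ALLO replicate 2.

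**Figure D3:**
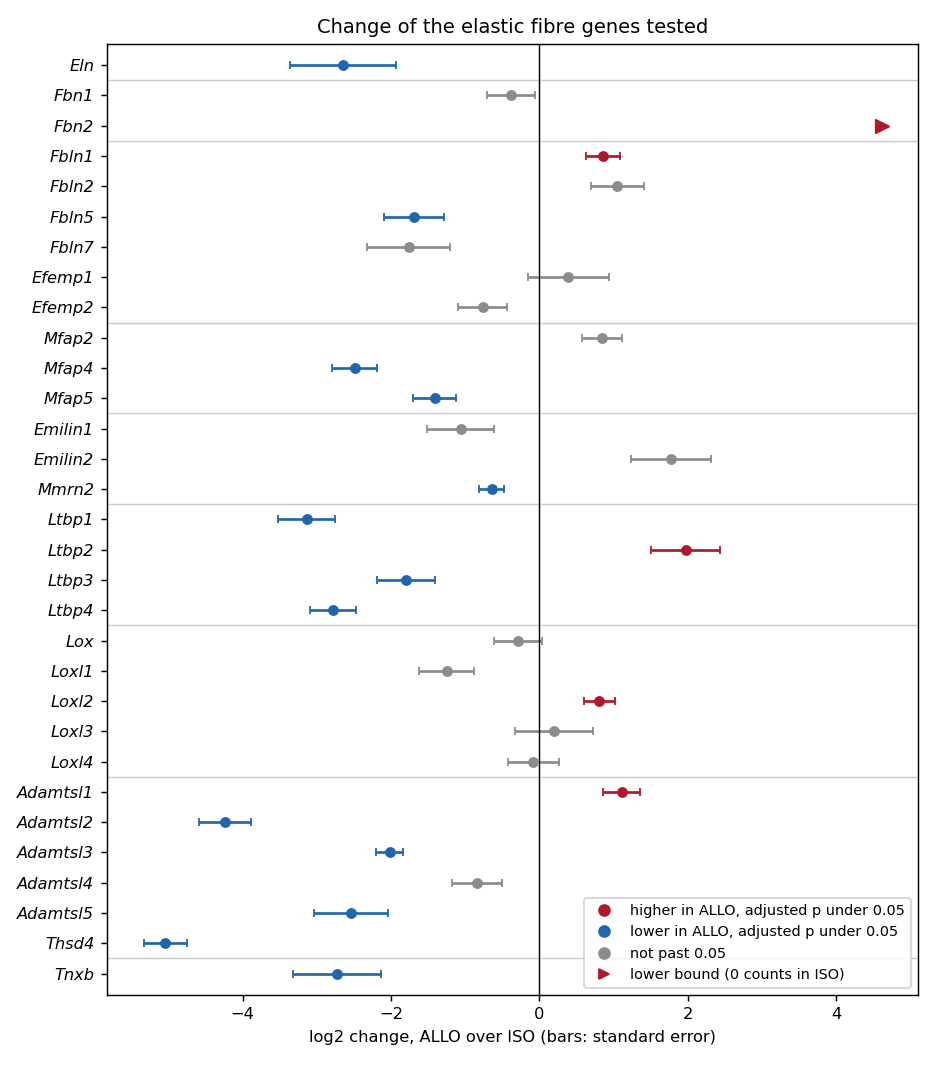
Log2 change of the 31 elastic fibre genes tested, ALLO over ISO, with standard errors as bars and families separated by grey lines. Blue genes fell (13), red genes rose (5) and grey genes did not pass an adjusted p of 0.05, while the triangle for Fbn2 is a lower bound since it had 0 counts in ISO.

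The order of levels differed between groups. Per kb of gene length, Eln stood first among the 32 genes in both ISO libraries, at 765 and 1233 CPM per kb, followed by Ltbp4 and then Mfap4 in ISO replicate 1 and by Mfap4 and then Ltbp4 in ISO replicate 2. In ALLO replicate 1 Eln stood in place 4, at 73.3 CPM per kb, below Fbln1 at 89.4, Lox at 81.4 and Mfap4 at 74.5. In ALLO replicate 2 it stood first, at 245 CPM per kb, ahead of Lox at 122 and Ltbp2 at 114. Eln was 8.96% and 18.0% of the summed per-kb level of the 32 genes in ALLO libraries and 29.3% and 35.8% in ISO libraries. Fbln1 was at place 1 in ALLO replicate 1 and place 4 in ALLO replicate 2, and at places 10 and 14 in ISO. Thsd4 was at place 29 in both ALLO libraries, and at places 14 and 11 in ISO.

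The libraries of a group were not alike for these genes. Of 30 genes with counts in every library, 21 were higher in ALLO replicate 2 than in replicate 1. The median log2 difference was 0.41, against 0.01 over all genes tested, of which 7853 of 15390 were higher in ALLO replicate 2. All 10 smooth muscle markers were higher in ALLO replicate 2 than in ALLO replicate 1 as well, by a median of 0.98, while 3 of 10 fibroblast markers were, with a median of -0.38. Within ISO, 10 of the 30 genes were higher in replicate 1, against 8361 of 15390 over all genes tested. The median for replicate 1 minus replicate 2 was -0.15, against 0.04 over all genes tested and -0.01 for the smooth muscle markers. All 10 macrophage markers were higher in ISO replicate 1. The part of these differences in the results was not tested.

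**Figure D4:**
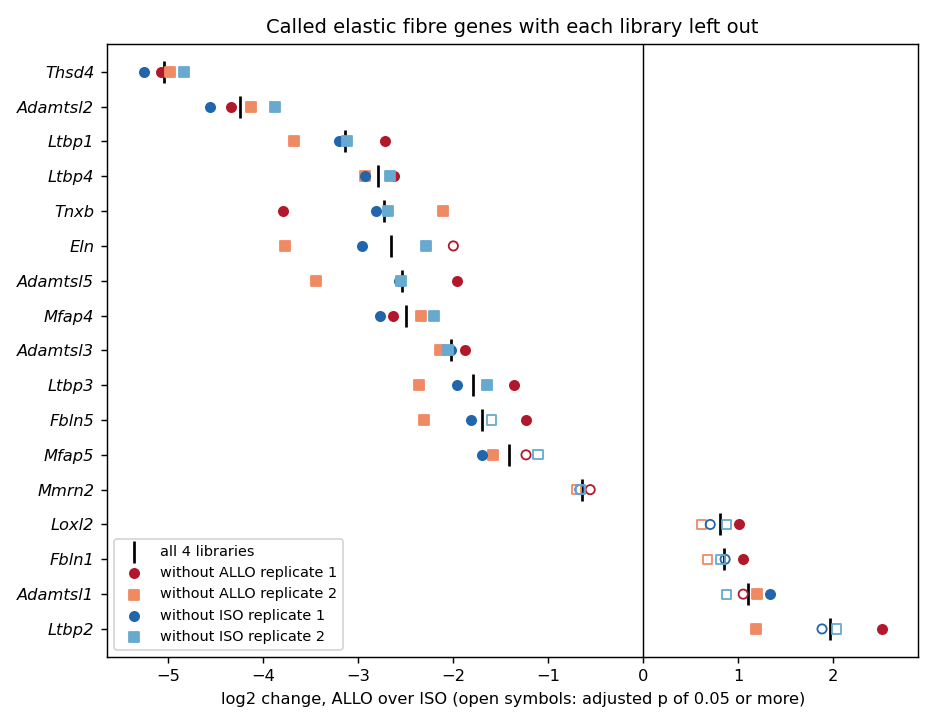
Log2 change, ALLO over ISO, of the 17 elastic fibre genes that passed and had counts in both groups, with all 4 libraries (bars) and with each library left out (symbols). Open symbols mark fits with an adjusted p of 0.05 or more, and Eln, Tnxb, Adamtsl5 and Ltbp2 move furthest between fits that leave out an ALLO library.

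Other genes of the pathway were given as 6 lists, also chosen with earlier results of these data known. Beside each count stand the shares over all genes tested, 18.4% higher and 14.8% lower. Of 18 tested genes for processing, copper supply and assembly partners, 2 were higher and 4 lower, with a median log2 change of 0.01. Pcolce2, an enhancer of procollagen C-proteinase, had 11.3 and 5.90 CPM in ALLO and 164 and 215 CPM in ISO, and fell 22.1-fold (edgeR adjusted p = 0.00379). Slc2a10, the transporter gene mutated in arterial tortuosity syndrome, fell 3.85-fold (edgeR adjusted p = 0.00515). Adamts10, a protease gene whose product binds fibrillin-1, fell 2.30-fold (edgeR adjusted p = 0.0244), a call lost without ISO replicate 1 (0.0580) or ISO replicate 2 (0.0815). Tll1, a tolloid-like protease gene, had 121 and 126 counts in ALLO and 16 and 6 in ISO. It rose 9.09-fold (edgeR adjusted p = 0.0160). It rose 16.1-fold without ISO replicate 1 and lost its call without ALLO replicate 1 (0.0524). Atp7a, the copper pump that loads lysyl oxidases, rose 2.36-fold (edgeR adjusted p = 0.0303), a call lost without ALLO replicate 1 (0.0982) or ISO replicate 1 (0.109).

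Of 7 tested integrin subunits that bind fibrillin or latent TGF-beta, 5 fell and 1 rose, with a median of -1.72. Itga8, a subunit of smooth muscle, had 76.7 and 109 CPM in ALLO and 3357 and 4038 CPM in ISO, and fell 39.8-fold (edgeR adjusted p = 0.00319). Itgb3 had 49.8 and 76.0 CPM in ALLO and 263 and 250 CPM in ISO, and fell 4.07-fold (edgeR adjusted p = 0.00747). Itgb1, the common beta-1 subunit, fell 3.29-fold (edgeR adjusted p = 0.0136). Itgb8, which rose 2.14-fold, lost its call whichever library was left out (edgeR adjusted p = 0.0506 to 0.167). The 3 genes of the elastin receptor complex, Glb1, Neu1 and Ctsa, rose 2.08-, 1.95- and 2.05-fold (edgeR adjusted p = 0.0197, 0.0346 and 0.0244). None of the 3 passed without ISO replicate 1 or without ISO replicate 2 (edgeR adjusted p = 0.0590 to 0.182), Glb1 did not without ALLO replicate 1 (0.0509) and Neu1 did not without ALLO replicate 2 (0.0793).

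Of 8 tested elastin-degrading proteases 6 rose and 0 fell, with a median of 2.54. Ctss, the lysosomal elastase of macrophages and other antigen-presenting cells, had 1805 and 1609 CPM in ALLO and 45.4 and 17.9 CPM in ISO, 53.9-fold higher (edgeR adjusted p = 0.00448). It was 94.6-fold higher without ISO replicate 1. Ctsk, another elastolytic cathepsin gene, rose 3.52-fold (edgeR adjusted p = 0.00719). Mmp12, macrophage elastase, had 196 and 255 CPM in ALLO and 5.20 and 0.966 CPM in ISO. It rose 72.9-fold (edgeR adjusted p = 0.00742), 230-fold without ISO replicate 1 and 42.7-fold without ISO replicate 2. Of the 8, Ctsl and Prtn3 did not pass (edgeR adjusted p = 0.567 and 0.459). Elane passed as higher with 36 and 33 counts in ALLO and 1 and 0 in ISO. Of 7 protease inhibitors tested 3 rose and 2 fell. Timp3, the inhibitor that is bound to matrix, had 228 and 179 CPM in ALLO and 719 and 907 CPM in ISO, and fell 4.00-fold (edgeR adjusted p = 0.00758). A2m, the alpha-2-macroglobulin gene, had 0 counts in both ISO libraries and rose at least 19.7-fold (edgeR adjusted p = 0.00531). Slpi, an elastase inhibitor gene, had 960 and 633 CPM in ALLO and 8.65 and 0.362 CPM in ISO. Its ISO counts were 148 and 6. It rose 176-fold (edgeR adjusted p = 0.0181), and 90.5-fold without ISO replicate 2. The rise was 2140-fold without ISO replicate 1, a value that rests on the 6 counts of the other ISO library, at the floor. Timp1 rose 5.18-fold (edgeR adjusted p = 0.0441). It rose 8.15-fold without ALLO replicate 1 and did not pass without ALLO replicate 2 (2.43-fold, 0.0905) or ISO replicate 2 (0.0721). Timp4 fell 6.26-fold (edgeR adjusted p = 0.0143), 3.73-fold without ISO replicate 1, and did not pass without ALLO replicate 1 (0.0629).

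Of 14 TGF-beta ligands, receptors, Smads and latency genes, 3 rose and 4 fell, with a median of 0.00. Tgfb2 had 29.7 and 45.3 CPM in ALLO and 194 and 224 CPM in ISO, and fell 5.56-fold (edgeR adjusted p = 0.00527). Nrros, which tethers latent TGF-beta on macrophages and microglia, had 152 and 154 CPM in ALLO and 15.7 and 4.35 CPM in ISO. It rose 15.2-fold (edgeR adjusted p = 0.0113), 34.8-fold without ISO replicate 1 and 9.56-fold without ISO replicate 2. Lrrc32, which tethers it on regulatory T cells and endothelium, fell 2.95-fold (edgeR adjusted p = 0.0170). Thbs1, an activator of latent TGF-beta, rose 4.05-fold (edgeR adjusted p = 0.0242). Leaving out ALLO replicate 2 gave 2.51-fold. Tgfb1 rose 2.47-fold (edgeR adjusted p = 0.0449), a call lost without ALLO replicate 2 (0.0885) or ISO replicate 2 (0.169). Tgfb3 fell 2.88-fold (edgeR adjusted p = 0.0179), a call lost without ALLO replicate 1 (0.0522).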

How the data were processed

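RNA came from whole aortic grafts and was sequenced after removal of ribosomal RNA, per the labels. The authors deposited raw counts per gene. The submitters' processing notes name Subread 1.6.4 with featureCounts, DESeq2 1.30.0, R 4.0.3 and mm10. Aligner, strand setting and handling of multi-mapping reads are not given in any source used here. Of 54752 IDs 54723 were named with GENCODE M21. Even numbers made up 68.0% to 74.6% of counts of 1 to 20 per library, as when both mates of a pair are counted, so the floor was 6 counts (3 pairs).

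Genes were filtered with filterByExpr (minimum count 10), scaled by TMM and tested with edgeR 4.0.16 (glmQLFit, glmQLFTest, group only; R 4.3.3), with Benjamini-Hochberg adjusted p under 0.05 over 16498 genes. The fit was also run on counts simulated from the means and dispersions of these same libraries. Such counts meet the model by construction, so that run does not test how well the model holds for the grafts. CPM uses TMM sizes; levels between genes were divided by summed exon length. The SE of a log2 change, also drawn as bars, is its absolute value divided by the square root of the quasi-likelihood F statistic. Members and lists were chosen with earlier results of these data known. Values are given for every member, and from each pathway list for up to 3 genes per direction with the smallest adjusted p. Alternatives were DESeq2 1.42.0, limma-voom (limma 3.58.1), other scalings and filters, halved counts, a replicate block and each library left out. Replicates differed beyond sampling noise (chi-square over degrees of freedom 154 in ALLO, 45.7 in ISO).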

Additional observations from a re-analysis of the deposited data

How the results depend on the processing

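No elastic fibre gene that passed changed direction under any of 13 alternatives. Of 403 values of the 31 genes, 352 stayed on their side of the threshold, 26 lost a call and 25 gained 1. Calls held under all 13 for Fbn2 and 9 genes that fell, namely Mfap4, Ltbp1, Ltbp3, Ltbp4, Adamtsl2, Adamtsl3, Adamtsl5, Thsd4 and Tnxb. Apart from fits that left out a library, calls were lost for Eln and Mmrn2 with scaling by library size alone, Mmrn2 and Loxl2 with no filter, Fbln1 with a mean count filter, and Fbln1, Mmrn2 and Loxl2 with the replicate block. Among genes that had not passed, Emilin2 passed under 6 of these 9 alternatives, Loxl1 under 5 (no filter, DESeq2 Wald test, limma-voom, halved counts and the replicate block), Fbln7 under 3, Mfap2 under 2 and Fbln2 under 1. The cause of the changes was not tested. Elastic fibre genes higher numbered 8 with the DESeq2 Wald test and 1 to 5 with a library left out, and lower 10 to 16. Their median was -1.38 to -0.52 with a library left out. Over all genes, 2054 to 2506 were higher and 1512 to 2245 lower with a library left out. Scaling by library size alone moved the median of all genes by 0.19 (log2) and called 5 TGF-beta genes higher. With a library left out, assembly partners gave 0 to 2 higher and 2 to 5 lower, integrins 0 higher, the elastin receptor complex 0 to 2 higher and inhibitors 1 to 2 lower.

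Replicate numbers were not shown to pair libraries (r = 0.0974 between same-numbered deviations). With the number as a replicate block 4 elastic fibre genes were higher and 14 lower, and 0 integrins were higher. Without division by length, shares moved to 4.14% (Ltbp2 in ISO), 55.6% (Ltbp4 in ISO), 19.1% and 54.2% (Fbln5 in ALLO and ISO) and 50.3% and 42.8% (Lox in ALLO and ISO). Whether deeper sequencing would change the calls was not tested, and Emilin3 was too low to test.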
